A study of Mus musculus with 24 samples.

Results

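Actin and alpha-actinin are the thin filament protein of muscle and the protein that ties those filaments together, and each is made from a small family of genes. The 9 genes described here were chosen by name: the actins Acta1, Actc1, Acta2, Actb, and Actg1, and the alpha-actinins Actn2, Actn3, Actn1, and Actn4. They were found among the 56941 genes of the deposited tables, and all 9 passed the filter on low counts that left 13318 genes for testing. RNA sequencing (RNA-seq) had been run on muscle tissues grown from C2C12, a mouse myoblast line that fuses into multinucleated fibers. The line, of genotype ChR2::tdTomato, carried channelrhodopsin (ChR2), an ion channel opened by blue light, in every group including the control. Tissues were paced with light for 30 min per day at 1 Hz, 4 Hz, or 10 Hz, while control tissues were not stimulated, with 6 libraries per condition and 24 in all. Control tissues received no light, so that light itself and paced contraction cannot be told apart, and the tissues also twitched without light. The tissues were grown as a monolayer in medium with horse serum and insulin-like growth factor 1 in all conditions, without nerve or load.

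Skeletal muscle builds its thin filaments from the striated actins, skeletal alpha-actin (Acta1) and cardiac alpha-actin (Actc1), the latter being abundant in embryonic and regenerating skeletal muscle. Smooth muscle alpha-actin (Acta2) marks smooth muscle and contractile fibroblasts and is made for a time by young myotubes. Cytoplasmic beta- and gamma-actin (Actb and Actg1) form the cortex and stress fibers of every cell and are widely used as reference genes. At the Z-disc, where thin filaments of neighboring sarcomeres meet, they are cross-linked by Actn2, found in all striated fibers, and Actn3, found in fast fibers. Actn1 and Actn4 cross-link actin at adhesions, stress fibers, and the leading edge of non-muscle cells. Serum response factor (SRF) and its actin-sensing coactivators of the MRTF family drive many actin genes through a DNA element called the CArG box.

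The actins are so alike that their coding sequences have to be told apart base by base, which bears on how short reads are assigned. The first 60 coding bases of the 3 alpha-actins are shown for this reason, read from the GENCODE M39 transcripts of GRCm39 from the start codon, with capitals where a base differs from Acta1.
Acta1: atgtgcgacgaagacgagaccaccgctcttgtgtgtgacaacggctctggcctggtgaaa
Actc1: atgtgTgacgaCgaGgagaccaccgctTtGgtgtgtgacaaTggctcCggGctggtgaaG
Acta2: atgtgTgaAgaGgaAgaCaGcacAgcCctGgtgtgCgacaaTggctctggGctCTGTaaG
Actc1 differed from Acta1 at 9 of these 60 bases and Acta2 at 17. The 2 cytoplasmic actins, whose coding sequence of 1125 bases is shorter than the 1131 bases of the alpha-actins, began as follows, with capitals where Actg1 differs from Actb.
Actb: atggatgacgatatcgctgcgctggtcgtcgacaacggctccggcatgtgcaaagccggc
Actg1: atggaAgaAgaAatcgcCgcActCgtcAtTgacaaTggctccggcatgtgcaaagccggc
Over the whole coding sequence, Acta1 was 86.3% identical to Actc1 and 85.4% to Acta2, and Actb was 88.6% identical to Actg1. Among the alpha-actinins, identity was 75.2% between Actn2 and Actn3 and 80.5% between Actn1 and Actn4.

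Reads were 50 bases long, so every stretch of 50 bases in each gene's transcript was looked up in all other annotated genes. Of the Actg1 stretches, 83.9% also occurred in another gene, including 100% of those in its coding sequence, mainly in pseudogenes such as Gm70496 and Gm12715. For Actb this share was 14.2%, and for the other 7 genes it was between 0.0583% and 1.94%. Actg1 and, less so, Actb may therefore rest on reads that the counting had to divide, and their levels are uncertain for that reason. The look-up used GENCODE M39, which the sources do not name as the annotation behind the counts. Of 5 copies of Actg1 found there that shared at least 10% of its stretches, 4 were in the deposited tables. The share of stretches thus does not measure how many reads were divided. The 4 copies of Actg1 in the tables that shared at least 10% of its stretches held between 0.294% and 0.989% of their joint counts with Actg1 in any library. Adding them to Actg1, which was decided on after seeing the data, left its log2 fold change at 0.00 for 1 Hz and -0.15 for 4 Hz over control, neither past the test.

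Because the CArG box is a known control element of actin genes, the promoters that hold it are also shown, as the 100 bases before the RefSeq start on the GRCm38.p6 build, with the box in capitals. The promoter table matched 7 of the 9 genes, all but Actb and Actn3. The CArG box was searched on both strands from 250 bases before to 50 bases after the start. It was found in 3 of the 7 promoters and in 1.63% of all 32851 promoters of the table.
Acta1, chr8:123894776-123894875, minus strand: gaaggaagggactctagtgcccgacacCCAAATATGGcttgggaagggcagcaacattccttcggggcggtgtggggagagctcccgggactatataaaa
Actc1, chr2:114052876-114052975, minus strand: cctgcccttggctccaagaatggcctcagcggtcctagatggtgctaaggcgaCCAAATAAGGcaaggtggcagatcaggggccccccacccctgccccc
Actg1, chr11:120348496-120348595, minus strand: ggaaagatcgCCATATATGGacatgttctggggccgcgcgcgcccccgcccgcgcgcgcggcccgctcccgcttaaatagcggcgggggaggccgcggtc
The boxes lay at -73, -47, and -90 bases from the start. A match is a description of the letters and not of a bound site. The promoters of Acta2, Actn2, Actn1, and Actn4 did not hold an exact match in this window. Only CC and GG around an unbroken run of A and T were sought, so variant boxes with another base in the run were passed over. The Acta2 promoter held such near matches, CCCTATATGG and CCTTGTTTGG. Whether they are bound was not tested, and absence of an exact match does not show absence of a CArG element.

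The genes lie apart in the genome and all on the minus strand of the GRCm39 build. The actins were annotated at chr8:124618502-124621686 for Acta1 with 7 exons, chr2:113876266-113884043 for Actc1 with 7 exons, and chr19:34217737-34232990 for Acta2 with 9 exons. Actb lies at chr5:142888870-142892509 and Actg1 at chr11:120236516-120239617, each with 6 exons. The alpha-actinins were annotated at chr13:12281303-12356043 for Actn2, chr19:4911244-4928529 for Actn3, chr12:80212233-80307547 for Actn1, each with 21 exons, and chr7:28592673-28661839 for Actn4 with 22 exons.

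Total counts ran from 4.09 to 15.2 M (mega) per library, with a median of 7.48 M. The 5 actins took between 0.522% and 1.04% of all counts and the 4 alpha-actinins between 0.0724% and 0.141%. Markers of the skeletal muscle fiber were present throughout, with 11 of 11 above 0 and a summed level of 4502 to 5003 TPM (transcripts scaled by length and summed to a fixed total per library) in control. Of 5 markers of cardiac muscle, Nppa and Myl7 were at 0 in all libraries. The others were present, with control means of 32.4 TPM for Myh6, 2.67 TPM for Tnni3, and 1.41 TPM for Nkx2-5. Of the smooth muscle markers, Myocd was listed at 0 in every control library and Myh11 averaged 0.0558 TPM in control. The others of that list were present, with control means of 94.7 TPM for Smtn and 12.4 TPM for Actg2. Lmod1 averaged 3.30 TPM and Cnn1 1.53 TPM. One further property of the libraries moved with the conditions. The residue of 18 non-polyadenylated small RNAs, which poly(A) selection should remove, was 99.1 to 170 CPM (counts scaled to the library total) in control, 15.03 to 70.0 at 1 Hz, 18.3 to 50.9 at 4 Hz, and 38.4 to 267 at 10 Hz. Its range in control overlapped neither that at 1 Hz nor that at 4 Hz, so that this property and stimulation cannot be told apart in those comparisons. The labels state that low-input RNA was ribodepleted instead, without saying in which samples.

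TPM, which are scaled by transcript length and so allow genes to be set side by side, gave the order of the genes in control. Acta1 stood first at 3292 ± 348 TPM (SD, n = 6) and ranked 19th among all genes over the 24 libraries. Actb at 1237 ± 232 TPM and Actg1 at 1022 ± 183 TPM followed, and their ranges overlapped. Acta2 (172 ± 58.8 TPM), Actc1 (165 ± 33.0 TPM), and Actn3 (143 ± 25.4 TPM) came next, each closer to its neighbor in this order than 1 SD. Actn4 (118 ± 24.6 TPM) and Actn1 (103 ± 24.6 TPM) also overlapped, and Actn2 was lowest at 52.4 ± 3.34 TPM (SD, n = 6). At 1 Hz the levels of the muscle forms were 5384 ± 1086 TPM for Acta1, 364 ± 74.8 TPM for Acta2, 276 ± 44.1 TPM for Actc1, 255 ± 37.9 TPM for Actn3, and 112 ± 18.1 TPM for Actn2. Actn2 then lay within the spread of Actn1 (124 ± 11.1 TPM) and Actn4 (125 ± 19.3 TPM), which it had been below in every control library.

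Pacing at 1 or 4 Hz went with higher RNA of each of the 5 muscle forms, Acta1, Actc1, Acta2, Actn2, and Actn3, by 1.72- to 2.38-fold over control. Of the 9 genes, 6 rose at 1 Hz (Actn1 under some settings only) and 0 fell, where 18.1% of all tested genes rose and 17.3% fell (edgeR quasi-likelihood test, Benjamini-Hochberg (BH) adjusted p below 0.05 over all tested genes). At 4 Hz 5 rose and 1 fell, where 19.2% of all genes rose and 20.2% fell. At 10 Hz 0 of 9 passed, where 2.67% of all genes rose and 2.22% fell. The median log2 fold change of the 9 genes was 0.78 at 1 Hz, 0.82 at 4 Hz, and 0.15 at 10 Hz, beside -0.01 for all tested genes in each comparison. The 3 comparisons share the same control libraries, so their values are set side by side and are not independent. In bulk RNA, more fibers and more RNA per fiber cannot be told apart.

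**Figure D1:**
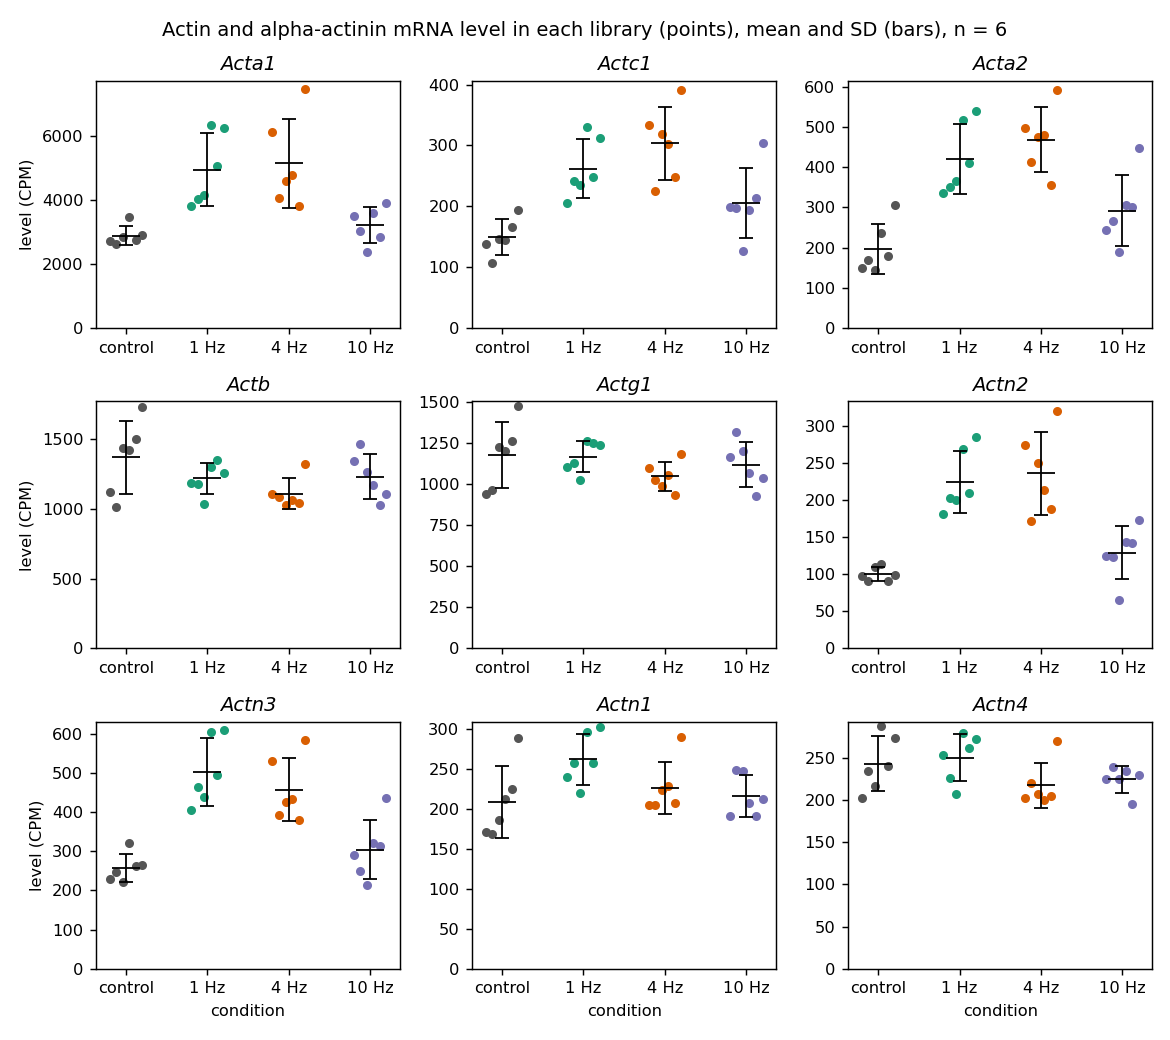
Level of each gene in CPM (y axis from 0, TMM-scaled) in each library, by condition (x axis), with points for libraries and bars for the mean and SD of 6 libraries. For Acta1, Actc1, Acta2, Actn2, and Actn3 every library at 1 and 4 Hz lies above every control library, while Actb, Actg1, Actn1, and Actn4 overlap between conditions.

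For comparison within a gene, CPM scaled by the trimmed mean of M-values (TMM) are given as the lowest, median, and highest of the 6 libraries. Acta1, the main actin of the adult sarcomere, was at 2615, 2811, and 3466 CPM in control and at 3810, 4614, and 6368 CPM at 1 Hz. It was at 3808, 4704, and 7479 CPM at 4 Hz and at 2391, 3271, and 3924 CPM at 10 Hz. No 1 or 4 Hz library was as low as the highest control library, whereas the 10 Hz libraries spread on both sides of the control range. The log2 fold change over control was 0.78 ± 0.15 (SE) at 1 Hz (adjusted p = 0.000379), 0.83 ± 0.15 at 4 Hz (adjusted p = 0.000141), and 0.15 ± 0.15 at 10 Hz (adjusted p = 0.615).

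Actc1, the striated actin of embryonic muscle and heart, followed Acta1 at a level well below it. It was at 106, 145, and 194 CPM in control, 205, 245, and 330 CPM at 1 Hz, and 225, 310 and 392 CPM at 4 Hz. At 10 Hz it was at 126, 198, and 304 CPM, and 5 of these 6 libraries were above every control library. Its log2 fold change was 0.81 ± 0.17 at 1 Hz (adjusted p = 0.000496), 1.03 ± 0.17 at 4 Hz (adjusted p = 3.21e-05), and 0.47 ± 0.16 at 10 Hz (adjusted p = 0.0963). The ratio of Acta1 to Actc1 TPM was 20.5 ± 4.04 in control, 19.4 ± 1.43 at 1 Hz, 17.4 ± 1.89 at 4 Hz, and 16.5 ± 2.65 at 10 Hz (SD, n = 6). Acta1 made up 95.2% of striated actin in control and 94.2% at 10 Hz, a difference that did not pass (2-sided exact permutation p = 0.0823, BH adjusted p = 0.123 over 36 tests of shares and totals).

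Acta2, the smooth muscle form, had the highest fold changes of the 5 actins at both frequencies. It was at 145, 174, and 306 CPM in control, 336, 388, and 541 CPM at 1 Hz, 355, 478, and 592 CPM at 4 Hz, and 189, 283, and 449 CPM at 10 Hz. All 1 and 4 Hz libraries were above all control libraries, and 1 library at 10 Hz was. The log2 fold change was 1.09 ± 0.19 at 1 Hz (adjusted p = 9.24e-05), 1.25 ± 0.19 at 4 Hz (adjusted p = 1.28e-05), and 0.57 ± 0.18 at 10 Hz (adjusted p = 0.0707). The summed level of 6 smooth muscle markers was 93.2 to 143 TPM in control, 94.5 to 136 TPM at 1 Hz, and 72.9 to 102 TPM at 4 Hz. Among them, Actg2, the enteric smooth muscle actin, was low at 12.4 ± 3.10 TPM in control and 18.5 ± 2.87 TPM at 1 Hz (SD, n = 6). Actg2 rose by 0.67 ± 0.17 on the log2 scale at 1 Hz (adjusted p = 0.00289) and by 0.50 ± 0.17 at 4 Hz (adjusted p = 0.0183). Myh11 stayed at means of 0.0558 to 0.115 TPM and Smtn, the most abundant of the list, was at 94.7 TPM in control and 92.3 TPM at 1 Hz. Smtn fell at 4 Hz (-0.53 ± 0.12, adjusted p = 0.00129) and at 10 Hz (-0.60 ± 0.12, adjusted p = 0.00483).

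The cytoplasmic actins did not rise. Actb was at 1012, 1428, and 1732 CPM in control, 1036, 1220.0, and 1346 CPM at 1 Hz, 1025, 1073, and 1324 CPM at 4 Hz, and 1030.4, 1218, and 1466 CPM at 10 Hz. The conditions overlapped throughout, and the control libraries were the most spread. Actb fell by 0.31 ± 0.11 on the log2 scale at 4 Hz (adjusted p = 0.0259), a call that was lost without control replicate 5 or 6 or 4 Hz replicate 3 (adjusted p = 0.0586, 0.0892, and 0.0527), without the filter on low counts, and under the fold threshold of 0.5. It was -0.17 ± 0.11 at 1 Hz (adjusted p = 0.226) and -0.15 ± 0.11 at 10 Hz (adjusted p = 0.450). For Actg1 the values were -0.01 ± 0.10, -0.17 ± 0.10, and -0.07 ± 0.10 at 1, 4, and 10 Hz (adjusted p = 0.936, 0.179, and 0.727), from a control range of 939 to 1476 CPM. The 95% interval of the Actg1 change at 1 Hz ran from -0.21 to 0.18.

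Of the alpha-actinins, Actn2, the form of every striated fiber, had the largest fold change of all 9 genes at 1 Hz and the control group tightest for its mean. It was at 90.4, 98.4, and 114 CPM in control, 181, 206, and 285 CPM at 1 Hz, 172, 232, and 320.3 CPM at 4 Hz, and 65.4, 133, and 174 CPM at 10 Hz. The lowest 1 or 4 Hz library was well above the highest control, and at 10 Hz 5 libraries lay above and 1 below all controls. The log2 fold change was 1.16 ± 0.17 at 1 Hz (adjusted p = 1.85e-05), 1.23 ± 0.17 at 4 Hz (adjusted p = 4.85e-06), and 0.36 ± 0.17 at 10 Hz (adjusted p = 0.225).

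Actn3, the fast-fiber form, was at 222, 255, and 322 CPM in control, 405, 479, and 611 CPM at 1 Hz, 381, 429, and 585 CPM at 4 Hz, and 215, 302, and 435 CPM at 10 Hz. Every library at 1 and 4 Hz again exceeded every control, and 1 library at 10 Hz did. It rose by 0.96 ± 0.14 on the log2 scale at 1 Hz (adjusted p = 2.10e-05) and by 0.82 ± 0.14 at 4 Hz (adjusted p = 6.59e-05), and was 0.23 ± 0.14 at 10 Hz (adjusted p = 0.366). On the TPM scale, which is not corrected for composition, the lowest 4 Hz library fell just inside the control range for Acta1 (3901 against 3939 TPM) and Actn3 (182 against 186 TPM), and the other muscle forms stayed apart.

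The non-muscle alpha-actinins had smaller fold changes. Actn1 was at 169, 199, and 289 CPM in control and 220, 257, and 302 CPM at 1 Hz, with 2 of 6 libraries above all controls. It rose by 0.33 ± 0.12 on the log2 scale at 1 Hz (adjusted p = 0.0309) and was 0.12 ± 0.12 at 4 Hz (adjusted p = 0.438). The call at 1 Hz was lost without any one of control replicates 1, 2, and 3 and 1 Hz replicates 4 and 6 (adjusted p = 0.0682 to 0.0802) and with scaling by total count (adjusted p = 0.0773). It was also lost with limma on TPM in all 3 settings (adjusted p = 0.0801 to 0.157) and under the fold threshold of 0.5 on the log2 scale used by the study. Actn4 was 0.04 ± 0.09, -0.16 ± 0.09, and -0.11 ± 0.09 at 1, 4, and 10 Hz (adjusted p = 0.755, 0.175, and 0.530), from a control range of 203 to 288 CPM.

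**Figure D2:**
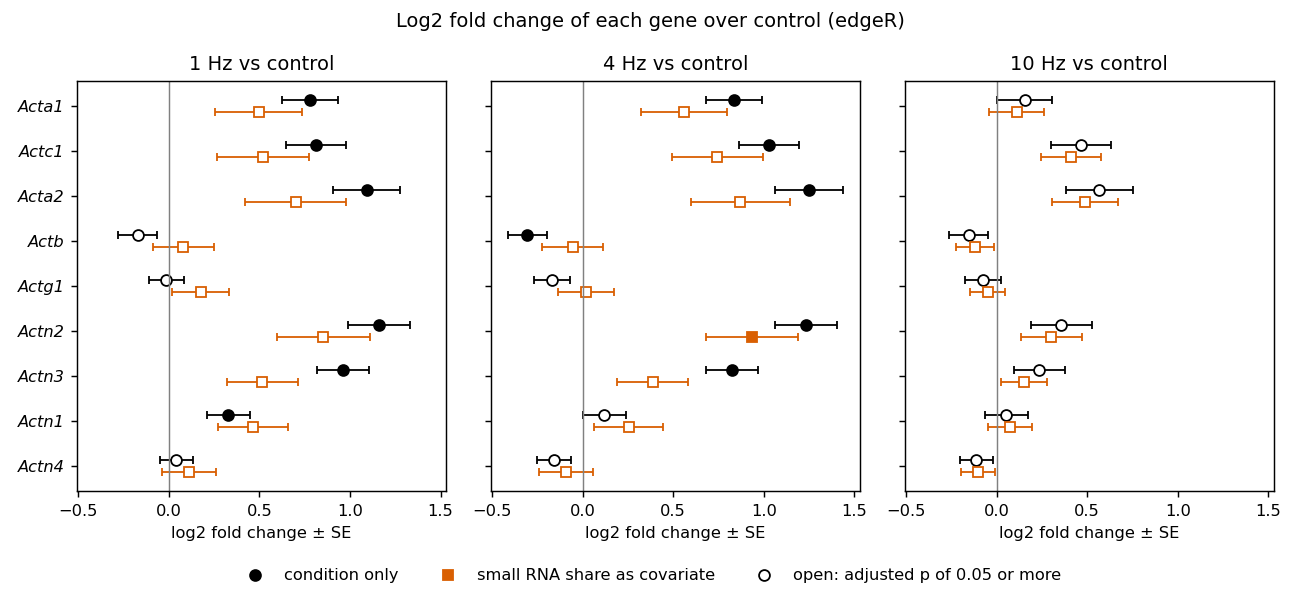
Log2 fold change over control (x axis) with its SE for each gene (y axis) at 1, 4, and 10 Hz, from the fit on condition only (black circles) and with the small RNA share as a covariate (orange squares), filled where the adjusted p was below 0.05. The 5 muscle forms lie between 0.78 and 1.25 at 1 and 4 Hz in black and between 0.39 and 0.93 in orange, where 1 square, Actn2 at 4 Hz, is filled.

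With the small RNA share as a covariate, the muscle forms stayed above control in value, but 0 of 9 genes passed at 1 Hz and 1 of 9 at 4 Hz. Actn2 at 4 Hz was the 1 that passed, at 0.93 ± 0.25 (adjusted p = 0.0462). At 1 Hz Actn2 was at 0.85 ± 0.26 (adjusted p = 0.201) and Acta1 at 0.50 ± 0.24 (adjusted p = 0.466). In the same fit the share of all tested genes past the test in either direction was 0.00751% rather than 35.4% at 1 Hz and 2.32% rather than 39.4% at 4 Hz.

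**Figure D3:**
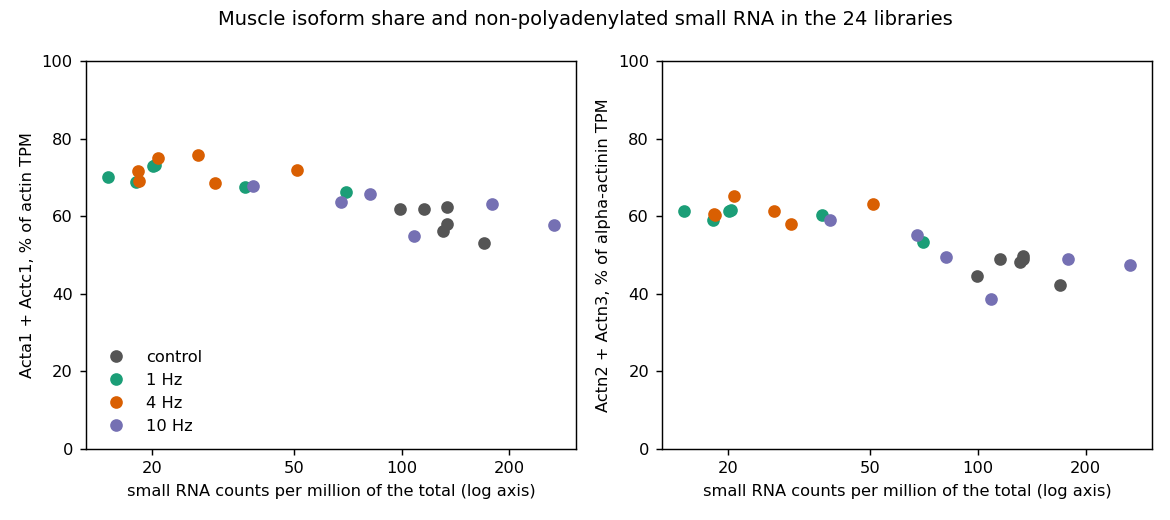
Striated share of actin TPM (left, percent) and muscle share of alpha-actinin TPM (right, percent) against the small RNA share in CPM (log axis) in each of the 24 libraries, colored by condition. The 1 and 4 Hz libraries sit at 15.03 to 70.0 CPM with high muscle shares, the controls sit at 99.1 to 170 with lower shares, and the 10 Hz libraries spread over both.

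The muscle forms were also lower at 10 Hz than at the lower frequencies. At 10 Hz against 1 Hz 4 of 9 genes were lower and 0 higher, where 17.7% of all genes were higher and 18.5% lower. Acta1 (-0.62 ± 0.15, adjusted p = 0.00240), Acta2 (-0.53 ± 0.18, adjusted p = 0.0260), Actn2 (-0.80 ± 0.17, adjusted p = 0.000558), and Actn3 (-0.73 ± 0.14, adjusted p = 0.000284) passed. Actc1 at -0.35 ± 0.16 did not (adjusted p = 0.0937). For Actn2 the 10 Hz and 1 Hz libraries did not overlap, 65.4 to 174 CPM against 181 to 285 CPM. The Acta2 call was lost without 1 Hz replicate 4 or 6 or without 10 Hz replicate 1, 2, or 3.

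At 10 Hz against 4 Hz all 5 muscle forms were lower and no gene was higher, where 10.9% of all genes were higher and 11.9% lower. The log2 fold changes were -0.68 ± 0.15 for Acta1, -0.56 ± 0.16 for Actc1, -0.68 ± 0.18 for Acta2, -0.88 ± 0.17 for Actn2, and -0.59 ± 0.14 for Actn3 (adjusted p from 0.000727 to 0.0145). The Actc1 call was lost with limma on TPM without the filter on low values (adjusted p = 0.0895). The 4 non-muscle forms lay between -0.07 and 0.15 and did not pass. With the small RNA share as a covariate, 0 of 9 genes passed in either comparison with 10 Hz. The muscle forms were at -0.11 to -0.55 against 1 Hz and at -0.24 to -0.63 against 4 Hz. In the same fit 2.40% rather than 36.3% of all tested genes passed in either direction against 1 Hz. Against 4 Hz it was 0% rather than 22.8%.

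Between 4 and 1 Hz 0 of 9 genes passed by edgeR, and 1, Actn4, had an unadjusted p below 0.05, where 5.71% of all genes were higher and 6.56% lower. DESeq2 and limma also called 0. The 5 muscle forms lay between -0.14 for Actn3 and 0.21 for Actc1, with 95% intervals from -0.41 to 0.14 and from -0.11 to 0.53. At 10 Hz against control, where edgeR passed 0 of 9, 3 genes (Actc1, Acta2, and Actn2) had an unadjusted p below 0.05, DESeq2 called 1, Acta2 (0.57, adjusted p = 0.0306), and limma called 0. Without 10 Hz replicate 3, the lowest of its group for 5 of the 9 genes, Actc1 (0.57, adjusted p = 0.0293), Acta2 (0.67, adjusted p = 0.0311), and Actn2 (0.49, adjusted p = 0.0392) passed against control by edgeR. Without control replicate 6 Acta2 passed (0.73, adjusted p = 0.0162).

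One library at 4 Hz stood above its group in the whole family. Replicate 6 was the highest of the 4 Hz libraries for all 9 genes, and actins took 1.04% of its counts, the most of any library. Without it the 5 muscle forms still passed against control at 4 Hz, and Actn4 passed as lower at 4 Hz than at 1 Hz (-0.27, adjusted p = 0.0422).

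Since muscle and non-muscle forms moved apart, the makeup of each family shifted. The striated forms Acta1 and Actc1 made up 58.9 ± 3.72% of actin TPM in control, 69.9 ± 2.84% at 1 Hz, 72.0 ± 2.91% at 4 Hz, and 62.1 ± 4.90% at 10 Hz (SD, n = 6). Control libraries ranged from 53.2% to 62.3%, below every library at 1 Hz (66.4% to 73.2%) and 4 Hz (68.6% to 75.7%). The differences of 10.9 and 13.0 percentage points from control were each at the smallest p that 6 against 6 libraries allow (2-sided exact permutation p = 0.00216, BH adjusted p = 0.00974). The 10 Hz difference of 3.21 points from control did not pass (exact permutation p = 0.229, BH adjusted p = 0.295), whereas the difference of 10 Hz from 4 Hz was -9.83 points (exact permutation p = 0.00216, BH adjusted p = 0.00974). From 1 Hz it was -7.73 points (exact permutation p = 0.00649, BH adjusted p = 0.0195).

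By single gene, Acta1 went from 56.1 ± 4.02% of actin TPM in control to 66.4 ± 2.81% at 1 Hz and 68.0 ± 2.96% at 4 Hz. Actb went from 20.9 ± 2.05% to 13.6 ± 1.56% and 12.2 ± 1.24%, and Actg1 from 17.3 ± 1.58% to 12.02 ± 1.64% and 10.9 ± 1.503% (SD, n = 6). The pool was larger as well, and the actin total was 5888 ± 708 TPM in control, 8065 ± 1325 TPM at 1 Hz, 7482 ± 1452 TPM at 4 Hz, and 5780.3 ± 655 TPM at 10 Hz (SD, n = 6), where it did not overlap with 1 Hz. The total was higher than in control at 1 Hz, with an exact permutation p of 0.00649 (BH adjusted p = 0.0195). It was also higher at 4 Hz, with an exact permutation p of 0.0195 (BH adjusted p = 0.0413), a call lost without any one of control replicates 1, 2, 3, and 5 and 4 Hz replicates 1, 3, 4, and 6.

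Among alpha-actinins, the muscle forms made up just under the non-muscle forms in control and passed them at 1 and 4 Hz. The share of Actn2 and Actn3 was 47.1 ± 3.06% in control, 59.5 ± 3.19% at 1 Hz, 61.5 ± 2.47% at 4 Hz, and 49.8 ± 7.004% at 10 Hz (SD, n = 6). Every library at 1 Hz (53.3% or more) and 4 Hz (58.0% or more) was above every control (49.8% or less), with differences of 12.4 and 14.3 points (exact permutation p = 0.00216, BH adjusted p = 0.00974 for each). The 10 Hz libraries ranged from 38.7% to 59.1%, the widest spread of the 4 conditions, and did not differ from control past the threshold (exact permutation p = 0.426, BH adjusted p = 0.512). The 10 Hz share differed from that at 1 Hz by -9.69 points, with an exact permutation p of 0.0108 (BH adjusted p = 0.0278), a call lost without 1 Hz replicate 3 or 6 or 10 Hz replicate 3. From 4 Hz it differed by -11.7 points, with an exact permutation p of 0.00433 (BH adjusted p = 0.0156). The alpha-actinin total was 417 ± 63.8 TPM in control and 615 ± 75.6 TPM at 1 Hz, with no overlap (exact permutation p = 0.00216, BH adjusted p = 0.00974), and 523 ± 78.7 TPM at 4 Hz (exact permutation p = 0.0195, BH adjusted p = 0.0413), the latter lost without any one of the 8 libraries just named for actin. At 10 Hz it was 426 ± 52.2 TPM.

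Within the muscle alpha-actinins the balance moved toward Actn2. Actn3, the fast form, made up 72.9 ± 3.01% of their TPM in control, 69.6 ± 0.760% at 1 Hz, 66.2 ± 2.50% at 4 Hz, and 70.1 ± 3.75% at 10 Hz (SD, n = 6). The difference of 4 Hz from control was -6.65 points, with an exact permutation p of 0.00433 (BH adjusted p = 0.0156), and that of 4 Hz from 1 Hz was -3.31 points, with an exact permutation p of 0.00866 (BH adjusted p = 0.0240). The ranges still touched, 62.5% to 69.7% at 4 Hz against 67.4% to 76.2% in control. At 1 Hz the difference of -3.34 points was at the edge (exact permutation p = 0.0260, BH adjusted p = 0.0492). It did not pass in 11 of the 12 tests that left out 1 library, nor on CPM (BH adjusted p = 0.0896). Actn3 per Actn2 TPM stood at 2.72 ± 0.381 in control, 2.29 ± 0.0820 at 1 Hz, 1.98 ± 0.219 at 4 Hz, and 2.39 ± 0.405 at 10 Hz (SD, n = 6).

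**Figure D4:**
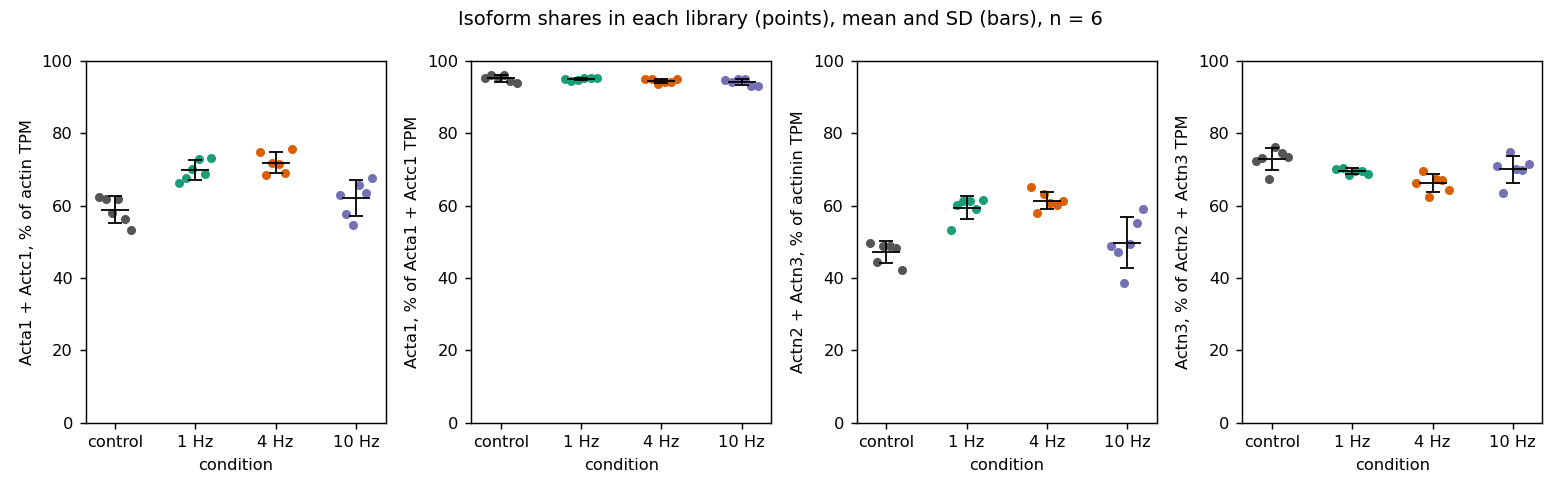
Share of the striated forms in actin, of Acta1 in striated actin, of Actn2 and Actn3 in alpha-actinin, and of Actn3 in Actn2 plus Actn3 (y axes, percent of TPM, 0 to 100) in each library by condition, with the mean and SD of 6 libraries. The striated and the muscle alpha-actinin shares are higher at 1 and 4 Hz than in all controls, the Acta1 share stays at 93.0% to 96.2%, and the Actn3 share is lowest at 4 Hz.

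The fiber markers gave a scale for these changes, beside all tested genes. Of the latter 18.1% rose and 17.3% fell at 1 Hz, and 19.2% rose and 20.2% fell at 4 Hz. Of 11 skeletal fiber markers, 8 rose and 0 fell at 1 Hz and the same counts held at 4 Hz, with median log2 fold changes of 0.58 and 0.84 beside 0.96 and 1.03 for the 5 muscle forms. Embryonic myosin Myh3 rose by 1.23 ± 0.19 at 1 Hz and 1.26 ± 0.19 at 4 Hz, and the skeletal troponin Tnnt3 by 0.58 ± 0.10 and 0.84 ± 0.10, all on the log2 scale. Ttn, the giant spring of the sarcomere, was at 0.06 ± 0.10 and 0.11 ± 0.10 and did not pass. Mb, at -0.13 ± 0.13 and 0.26 ± 0.13, and Ckm, at 0.25 ± 0.15 and 0.28 ± 0.15, did not pass either. Summed marker levels were 4996 to 6163 TPM at 1 Hz, 5396 to 6857 TPM at 4 Hz, and 3988 to 5075 TPM at 10 Hz. Mb weighed most in this sum, with a mean of 2149 TPM in control beside 4796 TPM for the whole list. Of the other lists, the summed markers of undifferentiated cells were 244 to 337 TPM in control and 357 to 481 TPM at 1 Hz, almost all of it Itga7, which fibers also express. Fibroblast markers were 86.0 to 267 TPM in control and 156 to 231 TPM at 1 Hz. Markers of cycling cells were 32.7 to 51.2 TPM in control and 28.1 to 32.8 TPM at 1 Hz. Most of this sum was Cdk1, with means of 28.6 TPM in control and 20.2 TPM at 1 Hz. Of these 6 markers, 0 rose and 1 fell at 1 Hz, with a median log2 fold change of 0.14. At 4 Hz 2 rose and 1 fell, with a median of 0.62. Cardiac markers were 28.1 to 45.1 TPM in control and 41.7 to 90.7 TPM at 1 Hz, nearly all Myh6. Adipocyte markers summed to at most 1.66 TPM in any library. The part of these other cells in the actin and alpha-actinin changes was not tested.

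Among genes whose products bind alpha-actinin at the Z-disc, those that passed were all higher than in control. Beside them, 18.1% of all tested genes rose and 17.3% fell at 1 Hz, and 19.2% rose and 20.2% fell at 4 Hz. At 10 Hz 2.67% of all tested genes rose and 2.22% fell. Of 19 tested genes of this list, 14 rose and 0 fell at 1 Hz, 11 rose and 0 fell at 4 Hz, and 3 rose and 0 fell at 10 Hz, with medians of 0.45, 0.51, and 0.26. Csrp3, the muscle LIM protein that binds alpha-actinin, rose most at both lower frequencies, by 1.15 ± 0.15 at 1 Hz (adjusted p = 5.12e-06) and 1.49 ± 0.15 at 4 Hz (adjusted p = 1.01e-07). It was also past the test at 10 Hz at 0.75 ± 0.15 (adjusted p = 0.00346).

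The partners of alpha-actinin at adhesions and stress fibers went both ways, as all tested genes did. Of all tested genes 18.1% rose and 17.3% fell at 1 Hz, and 19.2% rose and 20.2% fell at 4 Hz. At 10 Hz 2.67% rose and 2.22% fell. Of 14 tested genes, 3 rose and 3 fell at 1 Hz, 2 rose and 4 fell at 4 Hz, and 0 passed by edgeR at 10 Hz (3 at an unadjusted p below 0.05), with medians of 0.08, -0.06, and -0.07. Palld, the actin bundler palladin, rose by 0.49 ± 0.11 at 1 Hz (adjusted p = 0.00153) and 0.47 ± 0.11 at 4 Hz (adjusted p = 0.00161). Trip6, a zyxin-family adhesion protein, fell by 0.40 on the log2 scale at 1 Hz (SE 0.11, adjusted p = 0.00600), and Synpo, which binds alpha-actinin in stress fibers, fell by 0.63 at 4 Hz (SE 0.10, adjusted p = 4.56e-05).

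Genes that build, cap, and sever actin filaments were split as well. For scale, 18.1% of all tested genes rose and 17.3% fell at 1 Hz, and 19.2% rose and 20.2% fell at 4 Hz. At 10 Hz 2.67% rose and 2.22% fell. Of 32 genes, 11 rose and 4 fell at 1 Hz, 12 rose and 6 fell at 4 Hz, and 0 rose and 1 fell at 10 Hz, with medians of 0.05, 0.10, and 0.00. Fhod3, the formin of the sarcomere, rose by 1.20 ± 0.20 at 1 Hz (adjusted p = 6.30e-05), while its relative Fhod1 fell by 0.56 (SE 0.15, adjusted p = 0.00630). Tmod4, which caps the pointed ends of skeletal thin filaments, rose by 1.80 ± 0.28 at 4 Hz from a low level (1.64 CPM in control, adjusted p = 2.10e-05). Naa80, the enzyme that acetylates the N-terminus of actin, fell by 0.56 at 4 Hz (SE 0.17, adjusted p = 0.0101).

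The SRF and MRTF list, which regulates and reads out actin genes, had 16 tested members, of which 6 rose and 2 fell at 1 Hz, 5 rose and 4 fell at 4 Hz, and 0 rose and 1 fell at 10 Hz. Its medians were 0.26, 0.16, and -0.02. Among all tested genes 18.1% rose and 17.3% fell at 1 Hz, and 19.2% rose and 20.2% fell at 4 Hz. At 10 Hz 2.67% of all tested genes rose and 2.22% fell. Srf itself did not pass, at 0.24 ± 0.15 at 1 Hz (adjusted p = 0.218) and 0.01 ± 0.15 at 4 Hz (adjusted p = 0.972). Mrtfa rose by 0.37 ± 0.14 (adjusted p = 0.0358) and Mrtfb by 0.28 ± 0.09 (adjusted p = 0.0164) at 1 Hz, and neither passed at 4 Hz. The targets moved in opposite directions. Tagln, a smooth muscle actin-binding protein, rose by 1.03 ± 0.21 at 1 Hz (adjusted p = 0.000472) and 1.35 ± 0.21 at 4 Hz (adjusted p = 1.68e-05). Ccn1, a matricellular protein induced by stretch and serum, was lower at all 3 frequencies, at -1.07 ± 0.17 at 1 Hz (adjusted p = 6.09e-05), -2.11 ± 0.18 at 4 Hz (adjusted p = 2.53e-08), and -1.18 ± 0.17 at 10 Hz (adjusted p = 0.000461).

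**Figure D5:**
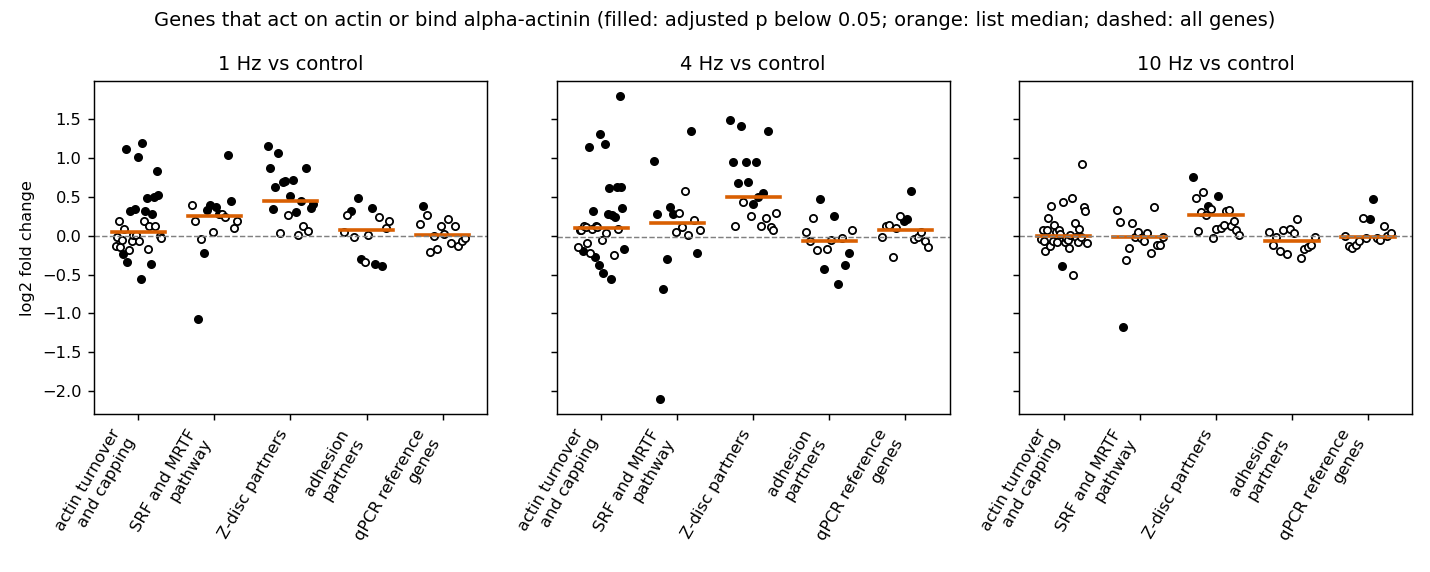
Log2 fold change over control (y axis) of each tested gene in 5 lists (x axis) at 1, 4, and 10 Hz, filled where the adjusted p was below 0.05, with the list median in orange and the median of all genes as a dashed line. The Z-disc partners lie at or above 0 at 1 and 4 Hz with medians of 0.45 and 0.51, and the other lists spread to both sides.

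Because Actb is a common reference in quantitative PCR, 14 genes used for that purpose were compared with it. For scale, 18.1% of all tested genes rose and 17.3% fell at 1 Hz, and 19.2% rose and 20.2% fell at 4 Hz. The shares at 10 Hz were 2.67% and 2.22%. The counts for the 14 genes follow. At 1 Hz 1 rose and 0 fell, at 4 Hz 3 rose and 0 fell, and at 10 Hz 2 rose and 0 fell, with medians of 0.01, 0.07, and -0.02. Eef2 rose at 1 Hz (0.38 ± 0.11, adjusted p = 0.00896). At 4 Hz the genes that rose were Rpl13a (0.57 ± 0.10, adjusted p = 8.51e-05), Ppia (0.21 ± 0.06, adjusted p = 0.00663), and Pgk1 (0.19 ± 0.06, adjusted p = 0.0196). Rpl13a and Ppia also rose at 10 Hz. Gapdh was at 0.27 ± 0.11 at 1 Hz (adjusted p = 0.0591), 0.14 ± 0.11 at 4 Hz, and -0.16 ± 0.11 at 10 Hz. Gusb, Hprt, Tbp, Rplp0, Tubb5, Ywhaz, Sdha, and B2m did not pass against control at any frequency, with values of -0.27 to 0.26.

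The genes whose level followed each member most closely over the 24 libraries were taken from 9006 tested genes with a mean of at least 10 CPM, by Pearson r of log2 CPM. These are descriptions over libraries that share condition and composition, and r of the deviations from the condition means is given beside each. For Acta1 they were Pygm (r = 0.96, within conditions 0.91), Loxl1 (0.96, 0.91), and Serpinh1 (0.96, 0.89). Actc1 was followed by Ankrd2 (0.96, 0.89), Acta2 (0.94, 0.83), and Tpm2 (0.94, 0.87), and Acta2 by Myh3 (0.96, 0.92), Ptgis (0.96, 0.88), and Mybph (0.95, 0.82). For Actn2 they were Pygm (0.97, 0.90), Cacna1s (0.96, 0.94), and Tpm2 (0.96, 0.87), and for Actn3 Mymk (0.97, 0.94), Pygm (0.97, 0.90), and Myom2 (0.97, 0.89). Pygm, the muscle glycogen phosphorylase, thus stood among the 3 closest genes of 3 members.

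The non-muscle members were followed by other genes. Actb and Actg1 were each other's closest gene (0.93, within conditions 0.96), followed by Tnc (0.84, 0.80) and Ccn2 (0.83, 0.86) for Actb and by Acin1 (0.84, 0.83) and Tubb3 (0.83, 0.83) for Actg1. Actn1 was followed by Capn2 (0.91, 0.90), Parva (0.89, 0.88), and Fmnl3 (0.88, 0.86). Actn4 was followed by Plcb3 (0.87, 0.84), Inf2 (0.86, 0.87), and Mroh1 (0.84, 0.80).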

How the data were processed

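RNA was taken from ChR2-expressing C2C12 tissues, 6 libraries per condition, and groups and replicate numbers came from the sample titles. The study describes them as biological replicates. The authors prepared directional poly(A) libraries, sequenced 50-base read pairs, and ran nf-core/rnaseq on GRCm39 with Ensembl genes. The labels' processing notes name STAR, Salmon, BWA 0.7.12-r1039, and bedtools 2.25.0. The authors deposited salmon estimated counts (expected counts, not normalized) and TPM per gene. The strand setting of the counting is not given in the sources used here.

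Estimated counts were rounded. Genes kept by filterByExpr (13318, holding 99.8% of counts) were fitted with edgeR 4.0.16 (TMM scaling, quasi-likelihood test, R 4.3.3) in 1 fit of 24 libraries on condition, with 6 contrasts. A gene passed at a BH adjusted p below 0.05 over all tested genes. SEs are the log2 fold change divided by the root of F. Shares and totals of TPM were compared with 2-sided exact permutation tests of 6 against 6 libraries (smallest p 0.00216), adjusted over 36 tests. The fit was also run on simulated counts. No small RNA difference between conditions was set in them, so that run does not bear on this difference. Total counts of 4.09 to 15.2 M set the counting error, and replicates differed by more than sampling noise. No batch was given in the labels, so no values within batches could be had.

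The 9 genes, the lists, and the markers were chosen with earlier results of these data known. Named genes are the 9 genes, Actg2, Srf, Mrtfa, Mrtfb, the gene of each list with the largest change each way among those past the test at 1 and 4 Hz, all reference genes but 1 that is not reported here, markers by level, and the 3 genes most correlated with each member. Pseudogenes were named for shared sequence. Alternatives were DESeq2 size factors, total count scaling, no filter, a minimum mean of 5 CPM, DESeq2 1.42.0, limma 3.58.1 on log2(TPM + 1) and log2(TPM + 0.1) with a minimum mean of 1 TPM and on log2(TPM + 1) without that minimum, only the 12 libraries compared, a replicate block, a fold threshold of 0.5 (log2) as in the study, the log2 share of small RNAs as a covariate, and each library left out. Shares were also computed from CPM and with Actg2 added. Sequences were read with python 3.11.15.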

Additional observations from a re-analysis of the deposited data

Results flagged for a closer look

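Of 60 groups of 6 libraries checked (each gene's CPM and each share or total in each condition), 6 held a library whose gap to its nearest neighbor, relative to the group's range, exceeded Dixon's 95% critical value. Chance gives about 1 such group in 20. In control, replicate 4 was high in Acta1 at 3466 CPM, with the others at 2615 to 2917 CPM. At 4 Hz, replicate 6 was high in Actb at 1324 CPM (others 1025 to 1107 CPM), in Actn1 at 289.7 CPM (others 205 to 228 CPM), and in Actn4 at 271 CPM (others 199.8 to 220.1 CPM). At 10 Hz, replicate 5 was low in Actn4 at 195 CPM (others 225 to 239 CPM). At 1 Hz, replicate 1 had the lowest muscle share of alpha-actinin at 53.3%, with the others at 59.1% to 61.6%, and it also had the highest small RNA residue of its group at 70.0 CPM.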

How the results depend on the processing

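At 1 and 4 Hz the 5 muscle forms passed over control under every alternative and every left-out library, except with the small RNA share as a covariate. With that covariate the number of genes past the test was 0 at 1 Hz, 1 at 4 Hz, 0 for 10 Hz against 1 Hz, and 0 for 10 Hz against 4 Hz. The share and stimulation cannot be told apart. At 10 Hz against control the number past the test was 1 without the filter on low counts, 1 with DESeq2, and 2 with the replicate block. The Actn3 share of muscle alpha-actinin computed from CPM differed by -2.69 points at 1 Hz (BH adjusted p = 0.0896) and by 4.30 points for 10 Hz against 4 Hz (BH adjusted p = 0.0410). Actg1 passed as lower at 4 Hz on total count scaling (-0.26) and with limma on TPM (-0.34 to -0.35). The calls of Actn1 at 1 Hz (0.33) and Actb at 4 Hz (-0.31) were lost under the fold threshold of 0.5 and with the covariate (adjusted p = 0.366 and 0.902).

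With 1 library left out, the number past the test ranged from 0 to 3 for 10 Hz against control (3 without 10 Hz replicate 3, 1 without control replicate 6) and from 0 to 1 for 4 Hz against 1 Hz. The actin total differed from control by 1090.5 to 1890 TPM at 4 Hz, losing its call without any one of 8 libraries, and between 10 and 4 Hz by -1997 to -1198 TPM, losing it without 4 Hz replicate 1 or 10 Hz replicate 2, 3, or 5. The alpha-actinin total differed by 76.9 to 122 TPM at 4 Hz, with 8 calls lost, by -115 to -67.4 TPM for 10 Hz against 4 Hz, with 9 lost, and by -122 to -74.3 TPM for 4 Hz against 1 Hz, where a call appeared without 4 Hz replicate 6. The Actn3 share differed by -4.44 to -2.67 points at 1 Hz and by 2.92 to 5.22 points for 10 Hz against 4 Hz, the Acta1 share of striated actin by -1.07 to -0.66 points and the muscle share of alpha-actinin by -11.6 to -7.48 points for 10 Hz against 1 Hz. The cause of these changes was not tested.

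The values did not settle whether replicate numbers pair the libraries. The deviations of same-numbered libraries correlated over 0.1 in at most 3 of 6 pairs per comparison. Yet 10 of 24 libraries correlated best with a library of their own number, though such libraries were few among those compared. The block moved 4 single-gene calls past the test and no other. Over all tested genes the share past the test was higher with the block in every comparison. It was 37.2% rather than 35.4% at 1 Hz and 6.22% rather than 4.89% at 10 Hz against control.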
